A study of Rattus norvegicus with 60 samples.

Results

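The 8 astrocyte genes described here are Gfap, Aqp4, Aldh1l1, Slc1a2, Slc1a3, Gja1, Glul and S100b. They were chosen by symbol: every probe set that the platform table assigns to 1 of these symbols was taken, which gave 17 of the 31042 probe sets and 8 of the 14217 genes. The arrays carry RNA of 5 brain regions (hippocampus, amygdala, striatum, accumbens and frontal cortex) from 12 adult rats, with 1 rat and 1 region per array and 60 arrays in all. Each region has 6 arrays of NP.P congenic rats and 6 arrays of NP rats. NP is a line selected for low alcohol preference. The congenic line carries a segment of the alcohol-preferring P line on the NP background, so both groups share the NP background and differ by that segment. Daily handling is the only procedure before death that the labels' protocols name, and both lines had it. The labels used here give neither age in days nor sex.

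Astrocytes are the glial cells that fill the space between neurons and blood vessels. They clear glutamate from synapses, turn it into glutamine, hand water and potassium on through end feet on vessels, and are joined to each other by gap junctions. Gfap codes for the filament protein used most to stain them, and it is known to be strong in hippocampal and fibrous astrocytes and weak in cortical grey matter. Aldh1l1, a cytosolic folate enzyme, stains protoplasmic astrocytes more evenly. Aqp4 is the water channel of the end feet. Slc1a2 (GLT-1) and Slc1a3 (GLAST) are the astrocytic glutamate transporters, and Glul is glutamine synthetase. Gja1 is the main astrocytic connexin, and S100b is a calcium-binding protein that some cells of the oligodendrocyte lineage also make. In whole tissue, fewer astrocytes and less RNA per astrocyte cannot be told apart.

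All values are on the deposited log2 scale, and the 60 array medians lay between 8.23 and 8.35. A probe set was tested where its mean over all arrays was at least 7.68, the 40th percentile, which kept 18625 probe sets. Of the 17 probe sets, 15 passed, and the others were Slc1a3 1371130_at (mean 7.08) and Gja1 1369639_at (mean 6.23). Each gene is represented by its probe set with the highest mean, and all 8 representatives passed, with means between 9.13 (Slc1a2) and 14.61 (S100b). A probe set is said to be called where limma's p-value, adjusted over all 18625 probe sets by the Benjamini-Hochberg method, was under 0.05. For the striatum and accumbens the labels matched markers of medium spiny neurons at the level of groups. Of 8 measured markers, 8 were called higher in the striatum and 7 in the accumbens. Slc17a7, listed as a marker of cortical and hippocampal excitatory neurons, was instead called 1.35 higher in the striatum (limma, adjusted p = 9.75e-10).

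Single arrays went against their region labels. A median correlation under 0.98 with arrays of the same label, or a region profile correlation under 0.5, set 7 arrays apart. The amygdala array of congenic animal 3 had its best profile match in the hippocampus (0.70), and the hippocampus array of the same animal had it in the amygdala (0.74). The accumbens array of NP animal 8 matched the hippocampus best (0.65) and its hippocampus array the accumbens (0.39). The others were the accumbens array of congenic animal 9, the amygdala array of NP animal 6 and the hippocampus array of NP animal 11. On the accumbens array of NP animal 8, 5 of the 8 astrocyte genes lay above the range of the 10 accumbens arrays that do not stand apart, Gfap among them at 13.91 against 12.95 to 13.37. All arrays were kept as labelled, and whether labels had been exchanged was not tested. Some regional results are given with and without the 7, and those without such a second value rest on all arrays as labelled. Control RNAs of bacteria and phage, added to every sample, also differed between regions: 43 of 45 such probe sets were called, with a median span of 0.45, and none between lines. Spans of single controls ran up to 1.25, above the widest astrocyte span on all arrays (1.22, Gfap). A difference in sample handling between regions thus cannot be told apart from the regional spans of the astrocyte genes, also above the control median.

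Between regions, all 8 genes differed. Among the representatives, Gfap had the widest span, highest in the hippocampus and lowest in the frontal cortex. Aldh1l1 was next, highest in the amygdala and lowest in the striatum. Over all 15 tested probe sets Gja1 1369640_at came second, with a span of 1.09 from amygdala to striatum. Of the 15 probe sets, 11 were called for a difference between any regions (an F test in limma, blocked by animal), against 93.3% of all probe sets tested. Without the 7 arrays all 15 were called, against 97.1% of all. The median span between the highest and the lowest region mean was 0.46 for the astrocyte probe sets and 0.41 for all. The probe sets not called were Aqp4 1387397_at, Slc1a3 1388064_a_at, Glul 1386870_at and Glul 1367633_at. The count was thus no higher than that of the array as a whole.

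**Figure D1:**
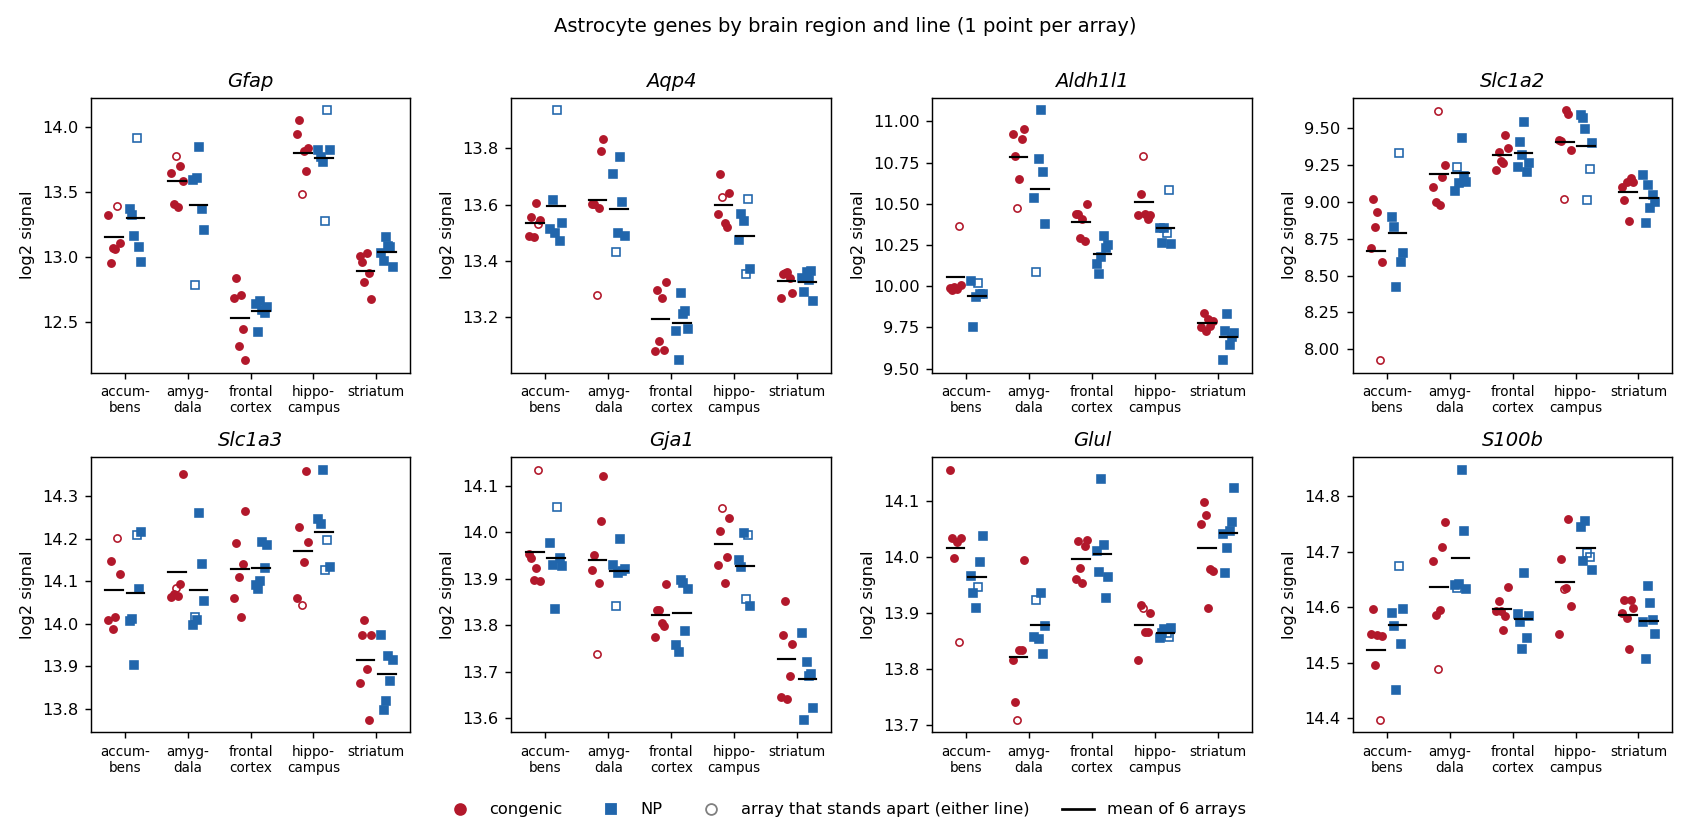
Log2 signal (vertical axes) of the representative probe set of each astrocyte gene in the 5 regions, with congenic arrays as circles left of NP arrays as squares, 1 point per array, open points for the 7 arrays that stand apart and bars for means of 6 arrays. Gfap means of 6 arrays run between 12.53 (congenic, frontal cortex) and 13.80 (congenic, hippocampus), and congenic and NP arrays overlap in every region for all 8 genes.

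Gfap was highest in the hippocampus, where the 12 arrays had a lowest value of 13.28, a median of 13.82 and a highest of 14.13. In the amygdala these were 12.79, 13.59 and 13.85, in the accumbens 12.95, 13.14 and 13.91, and in the striatum 12.68, 12.99 and 13.15. In the frontal cortex they were 12.21, 12.60 and 12.84. Every hippocampal array lay above every frontal cortex and striatal array, while the amygdala and accumbens overlapped with both neighbours in the order. Gfap averaged 13.78 ± 0.23 in the hippocampus and 12.56 ± 0.18 in the frontal cortex (SD, n = 12 each). Against the mean of the other 4 regions it rose by 0.72 in the hippocampus (SE 0.07, adjusted p = 2.82e-11 in limma, 1.65-fold) and by 0.36 in the amygdala (adjusted p = 5.56e-05). It fell by 0.81 in the frontal cortex (SE 0.07, adjusted p = 1.49e-13) and by 0.30 in the striatum (adjusted p = 3.25e-04). All 4 steps of the order hippocampus, amygdala, accumbens, striatum, frontal cortex were called in limma, with adjusted p between 9.89e-05 and 0.0147. The accumbens itself differed from the other regions by 0.03 (adjusted p = 0.766), and by -0.07 without the 7 arrays.

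Aqp4, the water channel, followed part of this order. Its representative had medians of 13.60 in the amygdala (range 13.28 to 13.83), 13.53 in the accumbens (13.47 to 13.94) and 13.55 in the hippocampus (13.35 to 13.71). It had medians of 13.34 in the striatum (13.26 to 13.37) and 13.19 in the frontal cortex (13.05 to 13.32). The first 3 regions overlapped widely, and the accumbens arrays all lay above those of the striatum and the frontal cortex. Aqp4 fell by 0.32 in the frontal cortex against the other regions (SE 0.04, adjusted p = 1.22e-10) and by 0.15 in the striatum (adjusted p = 3.08e-04). It rose by 0.19 in the amygdala (adjusted p = 1.65e-05), by 0.15 in the accumbens (adjusted p = 3.21e-04) and by 0.12 in the hippocampus (adjusted p = 0.0032). Amygdala and accumbens did not differ beyond their spread (0.03, adjusted p = 0.526), although they did without the 7 arrays (0.11, adjusted p = 0.0128).

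Aldh1l1, the folate enzyme, had another order. Its medians were 10.73 in the amygdala (range 10.09 to 11.07), 10.42 in the hippocampus (10.26 to 10.79) and 10.28 in the frontal cortex (10.08 to 10.50). They were 9.99 in the accumbens (9.75 to 10.37) and 9.74 in the striatum (9.55 to 9.84). No striatal array reached any array of the amygdala, hippocampus or frontal cortex. Aldh1l1 rose by 0.57 in the amygdala against the other regions (SE 0.05, adjusted p = 1.38e-13, 1.49-fold) and by 0.65 without the 7 arrays. It fell by 0.62 in the striatum (SE 0.05, adjusted p = 6.52e-16) and by 0.29 in the accumbens (SE 0.05, adjusted p = 7.19e-07). In the order amygdala, hippocampus, frontal cortex, accumbens, striatum, hippocampus and frontal cortex did not differ beyond their spread (0.14, adjusted p = 0.0528), and the other 3 steps were called. In the frontal cortex Gfap was thus lowest of 5 regions while Aldh1l1 was the third, at 0.08 above the other regions (adjusted p = 0.128, and 0.0322 without the 7 arrays).

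The 2 glutamate transporters were lowest in different regions, Slc1a2 in the accumbens and Slc1a3 in the striatum. Slc1a2 had a lowest value of 7.93, a median of 8.76 and a highest of 9.33 in the accumbens. The other medians were 9.41 in the hippocampus, 9.30 in the frontal cortex, 9.15 in the amygdala and 9.07 in the striatum. The accumbens was thus low in most animals, and its range overlapped with that of every other region. Without the arrays that stand apart, its highest value was 9.02, below the lowest of the frontal cortex (9.20) and the hippocampus (9.35). Slc1a2 fell by 0.51 in the accumbens against the other regions (SE 0.07, adjusted p = 2.52e-08), and by 0.49 without the 7 arrays. It rose by 0.32 in the hippocampus (adjusted p = 1.63e-04) and by 0.23 in the frontal cortex (adjusted p = 0.00376). Of the steps between neighbours in its order only that of striatum over accumbens was called (0.32, adjusted p = 0.00204), while hippocampus over frontal cortex had an adjusted p of 0.569. That step and frontal cortex over amygdala were called without the 7 arrays (adjusted p = 0.00567 and 0.00554).

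Slc1a3 was more even. Its median was 13.90 in the striatum (range 13.77 to 14.01) and between 14.05 and 14.20 in the other regions. Every array of the frontal cortex and hippocampus lay above every striatal array, and the lowest arrays of the accumbens and amygdala overlapped with the striatum. Slc1a3 fell by 0.23 in the striatum (SE 0.03, adjusted p = 1.85e-09) and rose by 0.14 in the hippocampus (adjusted p = 4.37e-05). Its order above the striatum held no called step (adjusted p = 0.155, 0.535 and 0.563). The first of these, hippocampus over frontal cortex, was called without the 7 arrays (0.098, adjusted p = 0.0270).

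Gja1, the connexin, fell by 0.21 in the striatum against the other regions (adjusted p = 6.08e-10), where its 12 arrays had a median of 13.69 and a range of 13.60 to 13.85. Its medians were 13.82 in the frontal cortex and between 13.92 and 13.94 in the other 3 regions. The striatal range met that of the frontal cortex and only the bottom of the others. The representative of glutamine synthetase (Glul) ran the other way. It rose by 0.10 in the striatum (adjusted p = 1.73e-04), and fell by 0.12 in the amygdala (adjusted p = 2.69e-05) and by 0.10 in the hippocampus (adjusted p = 5.43e-04). Its region medians lay between 13.84 and 14.04, with overlap between most regions. Glul 1386870_at and 1367633_at did not follow it. Without the 7 arrays, both had their lowest region mean in the striatum (13.61 and 13.08). S100b changed least, with region medians between 14.55 and 14.69. It rose by 0.08 in the hippocampus (adjusted p = 0.00178) and fell by 0.08 in the accumbens (adjusted p = 0.00152). The call of S100b in the hippocampus, and a rise of Glul by 0.07 in the frontal cortex (adjusted p = 0.014), were not called after quantile normalization. The spans of the representatives of Aqp4, Slc1a3, Gja1, Glul and S100b were below the median span of the control RNAs (0.45), that of Aqp4 at 0.41. The span of the Aqp4 representative without the 7 arrays was 0.46, above this median but below the highest control span (1.25). Other tested probe sets of these genes spanned 0.25 (Glul 1386870_at) to 1.09 (Gja1 1369640_at) on all arrays, with Aqp4 1368981_at at 0.80. Without the 7 arrays, Gja1 1369640_at and Aqp4 1368981_at spanned 1.08 and 0.82.

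**Figure D2:**
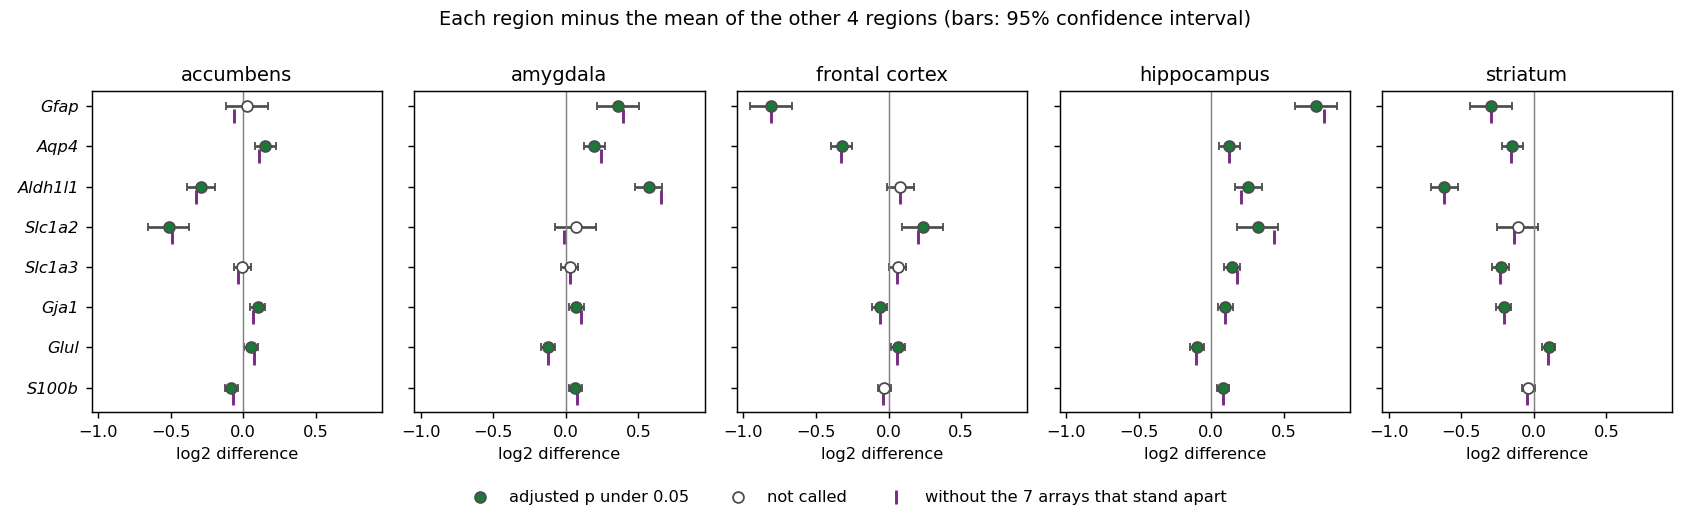
Log2 difference of each region from the mean of the other 4 (horizontal axes) for the 8 representative probe sets, with 95% confidence intervals, filled points for adjusted p under 0.05 and ticks for the value without the 7 arrays that stand apart. The widest differences are Gfap in the frontal cortex (-0.81) and hippocampus (0.72) and Aldh1l1 in the striatum (-0.62) and amygdala (0.57).

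Of the probe sets called, most were higher in the hippocampus and the amygdala, and most were lower in the striatum. The share called in the striatum (53.3%) was below that of all probe sets (69.6%), which were also mostly lower there. In the hippocampus 9 of 15 probe sets were called, 8 higher and 1 lower, against 54.3% of all probe sets (33.1% higher, 21.2% lower). In the amygdala 9 were called, 8 higher and 1 lower, against 47.8% (29.1% higher, 18.6% lower). In the striatum 8 were called, 2 higher and 6 lower, against 69.6% (26.3% higher, 43.3% lower). The probe set lower in the hippocampus and in the amygdala was that of Glul. In the accumbens 8 were called, 3 higher and 5 lower, against 62.4% (23.5% higher, 38.9% lower). In the frontal cortex 5 were called, 2 higher and 3 lower, against 61.3% (35.6% higher, 25.7% lower). The median difference of the astrocyte probe sets and of all probe sets was 0.12 and 0.04 in the hippocampus, 0.18 and 0.04 in the amygdala, and -0.12 and -0.07 in the striatum. It was -0.14 and -0.05 in the accumbens and 0.06 and 0.03 in the frontal cortex. Without the 7 arrays the counts were 13 in the hippocampus, 10 in the amygdala, 15 in the striatum, 9 in the accumbens and 12 in the frontal cortex. Without the accumbens array of congenic animal 9 alone, the frontal cortex count was 9. Without the 7 arrays, the shares of all probe sets were 64.8%, 62.8%, 78.2%, 70.4% and 72.4% in the same order.

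Pairs of regions were compared in the same fit. Between amygdala and hippocampus 2 of the 15 probe sets were called (25.7% of all), Gfap lower and Aldh1l1 higher in the amygdala. Amygdala against striatum gave 10 (66.7% of all), hippocampus against striatum 9 (68.6%) and frontal cortex against striatum 7 (69.7%). Accumbens gave 8 against the amygdala (58.9% of all), 8 against the striatum (55.5%), 7 against the hippocampus (63.7%) and 6 against the frontal cortex (65.8%). Amygdala against frontal cortex gave 8 (45.4%), and frontal cortex against hippocampus 6 (43.5%). These counts were higher in all 10 pairs without the 7 arrays. Amygdala against hippocampus then gave 8 (45.9% of all), amygdala against striatum 14 (77% of all), hippocampus against striatum 11 (76.3%) and frontal cortex against striatum 12 (79%). Accumbens gave 10 against the amygdala (68% of all), 11 against the striatum (63.7%), 11 against the hippocampus (71.3%) and 7 against the frontal cortex (74.7%). Amygdala against frontal cortex gave 12 (58.1%), and frontal cortex against hippocampus 13 (55.4%). The pair with the fewest calls thus depended on these arrays.

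Further probe sets of the same genes did not always follow the representative. On the accumbens array of congenic animal 9, Glul 1367633_at read 7.24 against a median of 13.20 on the 10 accumbens arrays that do not stand apart, and Slc1a3 1388064_a_at read 6.58 against 12.38. Aqp4 1368981_at read 6.91 there against 11.10, and Gja1 1369640_at 7.26 against 10.98. These probe sets were thus far below every other array of the region, while the representatives of the 8 genes differed from the median by -0.83 (Slc1a2) to 0.39 (Aldh1l1). The hippocampus array of NP animal 11 was lower in the same probe sets by less, with Aqp4 1368981_at down by 1.80 and Gja1 1369640_at down by 1.39. On both arrays the 3′ signal of Gapdh exceeded its 5′ signal more than on any other: by 4.56 and 0.51, against -0.10 to 0.26 on the 53 arrays that do not stand apart. For beta-actin this difference was also highest on both arrays (1.51 and 1.46). For hexokinase it was lowest of the 60 on the array of animal 9 (0.48) and second highest on that of animal 11 (2.80). The part of 3′ bias in the probe set values was not tested.

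**Figure D3:**
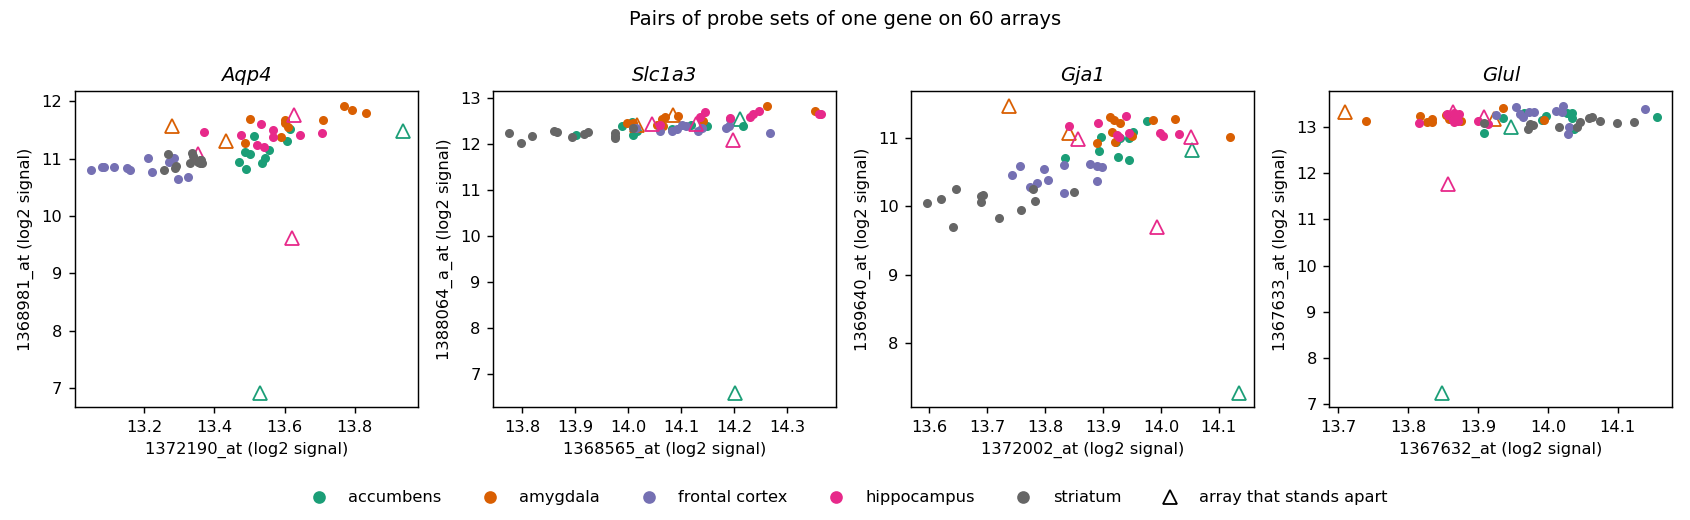
Log2 signal of the representative probe set (horizontal axes) against another probe set of the same gene (vertical axes), 1 point per array, coloured by region, with open triangles for the 7 arrays that stand apart. For Aqp4, Slc1a3 and Gja1 the 2 probe sets rise together on the 53 other arrays (Pearson r = 0.82, 0.75 and 0.83), with the accumbens array of congenic animal 9 far below the others.

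Over 60 arrays the correlation with the representative was 0.30 for Aqp4 1368981_at, 0.04 for Slc1a3 1388064_a_at and 0.26 for Gja1 1369640_at, and over the 53 other arrays it was 0.82, 0.75 and 0.83. These arrays share regions and animals, so the values are descriptions. Where such a probe set was called, it usually had the direction of the representative. Aqp4 1368981_at was 0.65 higher in the amygdala (adjusted p = 0.00545), and Gja1 1369640_at was 0.63 higher there (adjusted p = 0.0017) and fell by 0.74 in the striatum (adjusted p = 1.28e-04). Slc1a3 1388064_a_at fell by 0.53 in the accumbens (adjusted p = 0.0483), and by 0.074 without the 7 arrays (adjusted p = 0.0408). Without the accumbens array of congenic animal 9 alone it was not called (-0.044, adjusted p = 0.334). On all arrays the exception in direction was Slc1a2 1369694_at, which rose by 0.31 in the striatum (adjusted p = 0.00226). Its representative differed there by -0.11 (adjusted p = 0.158, and 0.00262 without the 7 arrays). Without the 7 arrays all 15 probe sets were called in the striatum. Glul 1386870_at and 1367633_at were then lower there, and the Glul representative was higher. Aqp4 1387397_at correlated with the representative at 0.18 even without the 7 arrays, and the Glul probe sets at 0.17 and 0.03.

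Most of a wider list of astrocyte genes was higher in the amygdala or hippocampus and lower in the striatum. Of 41 other astrocyte genes listed, 32 were measured. In the amygdala 22 of them rose and 2 fell (47.8% of all probe sets were called), in the hippocampus 17 rose and none fell (54.3%), and in the striatum 2 rose and 20 fell (69.6%). In the accumbens 5 rose and 15 fell (62.4%), and in the frontal cortex 8 rose and 13 fell (61.3%). Median differences of the 32 were 0.17 in the amygdala, 0.14 in the hippocampus, -0.14 in the striatum, -0.12 in the accumbens and -0.03 in the frontal cortex. Agt, the angiotensin precursor made by astrocytes, rose by 1.31 in the amygdala (SE 0.08, adjusted p = 7.66e-17) and by 0.70 in the hippocampus, and fell by 1.58 in the striatum (adjusted p = 4.95e-21). Slc25a18, a mitochondrial glutamate carrier, fell by 0.90 in the striatum (SE 0.04, adjusted p = 8.02e-23) and rose by 0.58 in the frontal cortex (adjusted p = 1.90e-16). Fabp7, the brain fatty acid binding protein, fell by 0.81 in the frontal cortex and rose by 0.63 in the hippocampus, as Gfap did. Gjb6, the second astrocytic connexin, rose by 0.57 in the frontal cortex and fell by 0.82 in the striatum, where Gja1 also fell. Cbs, which makes cystathionine, rose by 0.45 in the amygdala (adjusted p = 3.69e-11) and fell by 0.34 in the accumbens. The metallothionein gene Mt3 fell by 0.26 in the striatum (adjusted p = 7.73e-14). The transcription regulator Id4 rose by 0.43 in the accumbens and fell by 0.47 in the frontal cortex.

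In the lists around single members, the counts are read against the shares of all probe sets called. These were 69.6% in the striatum (43.3% lower), 61.3% in the frontal cortex (25.7% lower), 54.3% in the hippocampus (33.1% higher) and 47.8% in the amygdala (29.1% higher). Of 9 measured genes of reactive astrocytes, 7 fell and 1 rose in the striatum, with a median of -0.42, and 5 rose and none fell in the amygdala. Synm, synemin, a filament protein that pairs with Gfap, rose by 0.62 in the hippocampus (adjusted p = 1.71e-08) and fell by 0.41 in the frontal cortex (adjusted p = 2.48e-05). Hspb1, a small heat shock protein, rose by 0.73 in the amygdala (adjusted p = 2.30e-11), and Vim, vimentin, another filament protein, rose there by 0.47 (adjusted p = 0.00351). Cd44, the hyaluronan receptor, fell by 0.49 in the frontal cortex (adjusted p = 3.37e-11). Of 6 measured genes of the end foot complex that holds Aqp4 at vessels, 4 fell and none rose in the frontal cortex, Mlc1 by 0.18 and Dtna (dystrobrevin) by 0.19 among them, and in the hippocampus 4 rose and 1 fell. In the amygdala, where Aqp4 rose, Mlc1 and Dag1 (dystroglycan) rose by 0.15 and 0.11. In the accumbens and the striatum these genes and Aqp4 went apart. In the accumbens, where Aqp4 rose and 62.4% of all were called, 3 end foot genes fell and none rose. Among them Dag1 fell by 0.28 and Hepacam by 0.21. In the striatum, where Aqp4 fell, 2 rose and none fell, Utrn (utrophin) by 0.67 (4 called without the 7 arrays). Of 14 measured genes of the glutamate and glutamine cycle, 7 rose and 4 fell in the frontal cortex. The neuronal glutaminase gene Gls2 rose there by 0.72 (SE 0.04, adjusted p = 5.79e-21), and Slc17a6, a vesicular glutamate transporter of neurons, fell by 1.21. Slc17a6 rose by 1.41 in the amygdala (adjusted p = 2.61e-12), where Glud1, glutamate dehydrogenase, rose by 0.36. Of 8 measured S100 genes, S100b included, 6 fell and none rose in the striatum, S100a6 by 1.13 (adjusted p = 2.12e-10), and S100a10 rose by 1.13 in the frontal cortex (adjusted p = 6.86e-22).

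The next 3 lists include a member each (Gja1, Aqp4 and Aldh1l1), and 69.6% of all probe sets were called in the striatum and 61.3% in the frontal cortex. Of 5 measured connexins and pannexins, 3 fell and 2 rose in the striatum, where Gjb2, a connexin also found in the meninges, fell by 1.19 (adjusted p = 8.75e-07). Of 4 measured aquaporins, 3 fell and 1 rose in the striatum, where Aqp9, which also passes glycerol, fell by 0.51 (adjusted p = 1.79e-12), and Aqp11 rose by 0.68 in the frontal cortex (adjusted p = 1.75e-18). Of 6 measured folate enzymes, 3 fell and 1 rose in the striatum, and in the frontal cortex 3 fell and none rose (5 called without the 7 arrays). Aldh1l2, the mitochondrial counterpart of Aldh1l1, rose by 0.33 in the accumbens (adjusted p = 3.02e-10), where Aldh1l1 fell, and fell by 0.25 in the frontal cortex (adjusted p = 2.14e-07).

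Markers of other cell types moved with the same regions. The shares of all probe sets called were 47.8% in the amygdala, 69.6% in the striatum, 54.3% in the hippocampus and 61.3% in the frontal cortex. In the amygdala 8 of 10 markers of microglia and 6 of 7 markers of meningeal fibroblasts rose and none fell, while 7 of 9 oligodendrocyte markers fell. In the striatum 7 microglial and 6 meningeal markers fell, and 6 oligodendrocyte markers rose. In the hippocampus 8 oligodendrocyte markers and 3 of 3 measured choroid plexus markers rose, and the median difference of the choroid plexus markers was 2.25. In the frontal cortex 8 of 8 endothelial markers rose and 8 oligodendrocyte markers fell. The mean centred level of the 8 astrocyte genes had a median of 0.18 in the hippocampus (range -0.0014 to 0.26), 0.11 in the amygdala (-0.07 to 0.33) and -0.16 in the striatum (-0.23 to -0.11). That of the microglial markers had a median of -0.03 in the hippocampus (-0.13 to 0.18), 0.24 in the amygdala (-0.09 to 0.56) and -0.20 in the striatum (-0.32 to -0.12). The level of the added poly-A control RNAs deviated from its mean by -0.37 in the striatum and by 0.22 in the frontal cortex. The part of these cell types and of the controls in the astrocyte values was not tested.

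**Figure D4:**
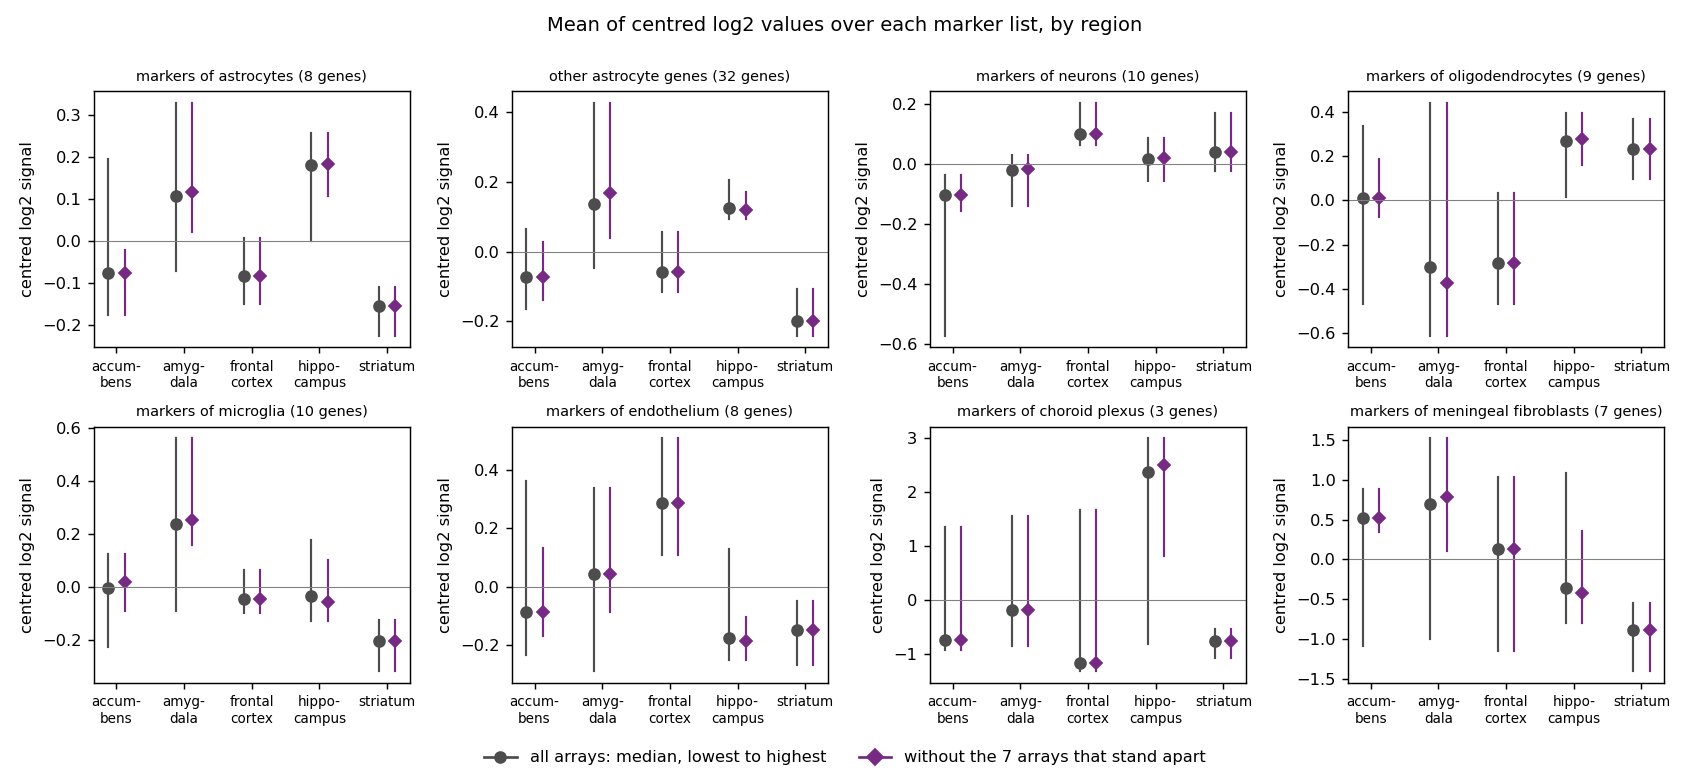
Mean centred log2 signal (vertical axes, each gene centred on its mean over 60 arrays) of 8 gene lists in the 5 regions, with the median and the range over all 12 arrays of a region (circles) and without the arrays that stand apart (diamonds). The astrocyte genes and the other astrocyte genes are lowest in the striatum, and the microglial markers are highest in the amygdala.

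Within the 8 genes, some pairs varied together and others in opposition. Over the 60 arrays the 28 pairs had Pearson correlations between -0.62 and 0.77 with a median of 0.37, and 19 were above 0. Gfap and Aqp4 were closest (0.77), followed by Aqp4 and Gja1 (0.73) and by Slc1a3 and Gja1 (0.69). Glul ran against Aldh1l1 (-0.62) and Gfap (-0.60). After the region means were subtracted over all 60 arrays as labelled, 24 of 28 were above 0, with a median of 0.25. Differences of the 7 arrays from their labelled regions remain in these values. The points share regions and animals, and the values are descriptions without a test. The promoters of the closest pair, Gfap and Aqp4, and of the 2 genes that hold a motif searched are shown as the 250 bases before the first listed transcription start in RefSeq (GRCr8, all on the minus strand, 5′ to 3′ along the gene). They lie at chr10:88361662-88361911, chr18:6798843-6799092, chr2:59557809-59558058 and chr20:12381082-12381331. The listed gene spans of Aqp4 and S100b end at 6799034 and 12381159, so these 2 windows lie partly inside the genes. Capitals mark a single arm of the motif of nuclear factor I, a family of factors active in astrocyte development.
Gfap: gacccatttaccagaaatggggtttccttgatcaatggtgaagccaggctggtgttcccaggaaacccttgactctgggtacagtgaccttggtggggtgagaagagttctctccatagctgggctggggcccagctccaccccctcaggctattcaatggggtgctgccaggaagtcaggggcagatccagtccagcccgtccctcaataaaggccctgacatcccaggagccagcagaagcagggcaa
Aqp4: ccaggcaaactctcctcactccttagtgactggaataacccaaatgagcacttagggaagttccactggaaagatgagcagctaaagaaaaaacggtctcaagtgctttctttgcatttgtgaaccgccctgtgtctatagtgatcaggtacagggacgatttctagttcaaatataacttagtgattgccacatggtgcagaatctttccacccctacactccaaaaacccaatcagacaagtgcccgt
Slc1a3: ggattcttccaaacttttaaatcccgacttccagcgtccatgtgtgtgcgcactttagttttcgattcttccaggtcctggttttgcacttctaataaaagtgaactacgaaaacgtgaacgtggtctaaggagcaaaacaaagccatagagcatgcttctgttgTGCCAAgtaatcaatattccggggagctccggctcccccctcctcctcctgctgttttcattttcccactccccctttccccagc
S100b: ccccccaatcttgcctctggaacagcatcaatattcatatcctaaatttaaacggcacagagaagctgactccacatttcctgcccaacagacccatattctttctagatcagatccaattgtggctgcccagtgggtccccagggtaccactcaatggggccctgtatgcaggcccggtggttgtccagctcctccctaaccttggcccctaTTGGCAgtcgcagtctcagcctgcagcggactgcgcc

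This arm, TTGGCA, searched on both strands from 250 bases before to 50 after the start, was found in 2 of the 8 promoters and in 13.6% of 27457 rat promoters. In Slc1a3 it begins 85 bases before the start on the opposite strand, so that it reads TGCCAA. In S100b it begins 37 bases before the start used here, within the listed gene span. The palindrome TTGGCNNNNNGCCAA was in none of the 8 and in 0.0437% of all, and the STAT motif TTCNNNGAA in none and in 8.68%. TATAAA was in none and in 14.3%. A match is a description of these letters only.

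The genes whose values over the 60 arrays were most like the mean of the 8 were Plcd4, a phospholipase gene (Pearson r = 0.915), Tril (0.908), Lix1 (0.904), Plpp4 (0.892) and Retsat (0.886). Slc14a1 (0.886), Tshz2 (0.885), Cnn3 (0.882), Lgals8 (0.880) and Naprt (0.876) came next. After the region means were subtracted, Aqp4 itself led (0.774), with Tril (0.759), Plcd4 (0.754), Retsat (0.752) and Thrsp (0.750) behind it. For Gfap the closest were Cpne7 (0.919), Dock10 (0.918) and Map7 (0.910). For Aldh1l1 they were Ramp2 (0.905), Eci2 (0.897) and Plcd4 (0.896), and for Aqp4 they were Eml6 (0.854), Mtss1 (0.841) and Sema6d (0.834). Tril, Plcd4 and Retsat were thus close both before and after this subtraction. It used all 60 arrays as labelled, so differences of the 7 arrays from their labelled regions remain in these values.

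For the other members the closest genes differed from these. They were Eps15 (0.873), Nmt1 (0.866) and Rfc1 (0.860) for Slc1a2, and Mt3 (0.883), Fermt2 (0.866) and Pon2 (0.865) for Slc1a3. For Gja1 they were Rps6 (0.871), Ptprz1 (0.866) and Lims1 (0.851). Glul and S100b had lower maxima, with Cyrib (0.779), Ndfip2 (0.750) and C1galt1 (0.723) for Glul and Ino80c (0.794), Gamt (0.793) and Abhd4 (0.777) for S100b.

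The series was made to compare the congenic line with the NP line. No astrocyte probe set was called between the lines. In the mean of the 5 regions of each animal, 0 of 15 probe sets were called in limma, against 0.123% of all probe sets. Before adjustment, 2 of the 15 had a p under 0.05. The smallest adjusted p was 0.725. The counts were also 0 in the accumbens (0.00537% of all called, 0 with an unadjusted p under 0.05), the amygdala (0.0322%, 0), the frontal cortex (0.0537%, 2), the hippocampus (0.00537%, 0) and the striatum (0.0644%, 1). The interaction of line and region called 0 (0% of all), 0 of them with an unadjusted p under 0.05. Without the 7 arrays the counts of astrocyte probe sets called were 0 in each of these 7 tests. The median difference between congenic and NP rats was -0.02 over the 15 probe sets and -0.0020 over all. The other astrocyte genes likewise had 0 of 32 called between the lines, and the lists around single members and the cell type markers had none.

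Aldh1l1, which lies on rat chromosome 4 (GRCr8, 124617182 to 124663674), had the smallest p of the 8 genes. The limits of the transferred segment are not given in the sources used here. Its means over 5 regions were 10.31, 10.32, 10.26, 10.26, 10.34 and 10.34 in the 6 congenic rats, against 10.12, 9.98, 10.21, 10.27, 10.23 and 10.11 in the 6 NP rats. A single NP rat reached the congenic range. The mean was 10.30 ± 0.04 in congenic rats and 10.15 ± 0.11 in NP rats (SD, n = 6 each), a difference of 0.15 (SE 0.04, 95% confidence interval 0.06 to 0.24, adjusted p = 0.725 in limma, unadjusted 0.00377). It was 0.11 in the accumbens, 0.19 in the amygdala, 0.20 in the frontal cortex, 0.16 in the hippocampus and 0.08 in the striatum, higher in congenic rats in 5 of 5 regions. These regions come from the same rats and make up the mean, so their shared direction adds no separate evidence. Without the accumbens array of congenic animal 9, the accumbens difference was 0.05 (SE 0.05). Without the 7 arrays the mean difference was 0.12 (adjusted p = 0.678). In the frontal cortex the congenic arrays had a lowest value of 10.27, a median of 10.42 and a highest of 10.50, and the NP arrays 10.08, 10.21 and 10.31, with a small overlap (adjusted p = 0.545). The difference thus did not pass the test across all probe sets.

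Aqp4 1387397_at had a line difference of -0.17 as an average of the regions (adjusted p = 0.884, and -0.10 without the 7 arrays). In the frontal cortex its values were 10.51, 10.79 and 10.89 (lowest, median, highest) in congenic rats and 10.90, 10.98 and 11.15 in NP rats. These groups did not overlap, and the difference of -0.23 had an adjusted p of 0.586 in limma. The share of all probe sets without overlap is not given here. The other Aqp4 probe sets differed in the frontal cortex by 0.02 (the representative) and -0.06 (1368981_at). The Aqp4 representative gave 0.02 in the mean over regions (95% confidence interval -0.05 to 0.09). Gfap in the striatum averaged 12.90 ± 0.13 in congenic rats and 13.04 ± 0.08 in NP rats (SD, n = 6 each), a difference of -0.15 (adjusted p = 0.988). For the mean over regions, the 95% confidence intervals were -0.14 to 0.09 for Gfap, -0.09 to 0.06 for Slc1a2, -0.06 to 0.08 for Slc1a3 and -0.03 to 0.08 for Gja1. They were -0.05 to 0.04 for Glul and -0.08 to 0.03 for S100b. With 6 animals per line, differences within these bounds could not be resolved.

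**Figure D5:**
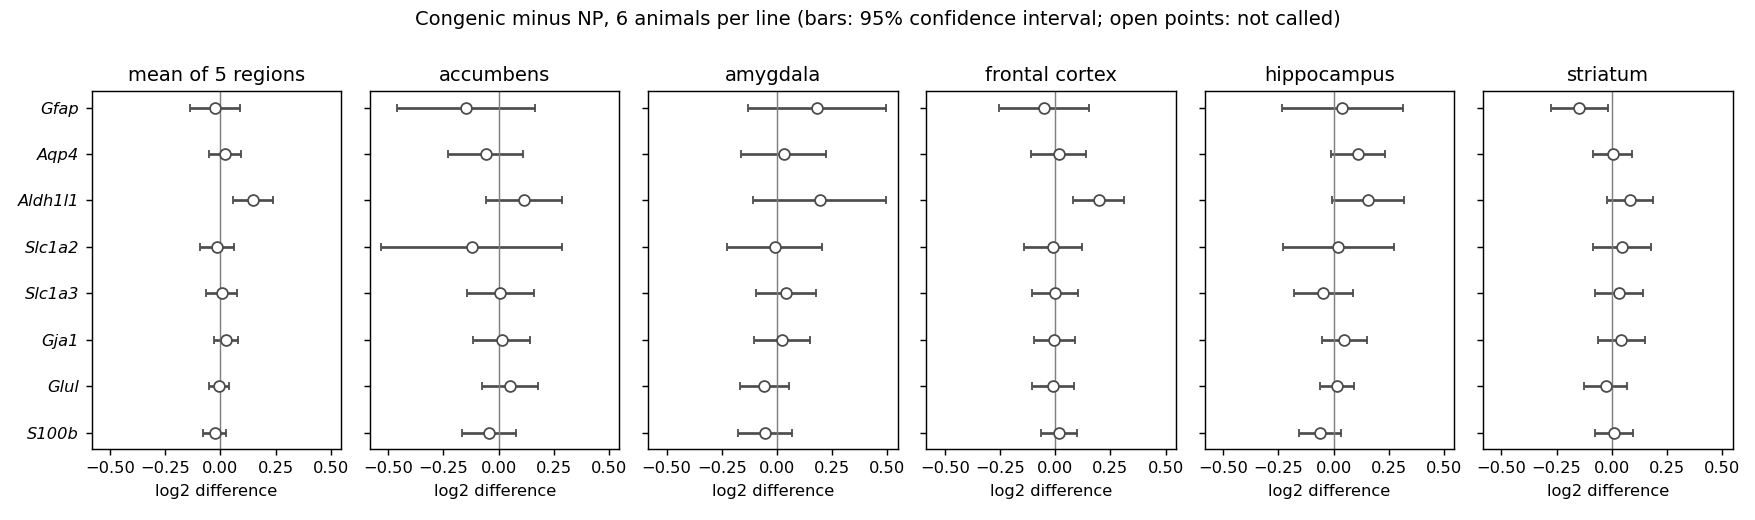
Congenic minus NP log2 difference (horizontal axes) of the 8 representative probe sets in the mean of the 5 regions and in each region, with 95% confidence intervals and open points for differences not called, 6 animals per line. Aldh1l1 lies above 0 in all 6 panels, which share the same animals, at 0.15 in the mean of the regions, and no gene was called.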

How the data were processed

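RNA of 1 region of 1 rat was hybridized per Affymetrix array, after Trizol extraction and biotin labelling per the labels' protocols. The authors deposited log2 values of 31099 probe sets for 60 arrays. Background correction and normalization are not given in the sources used here. Arrays give no read depth, and their number limits the precision. The 57 control probe sets were left out of the tests, and the values were used as deposited.

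Symbols came from the platform annotation, which gives 1 symbol for 20826 probe sets, several for 436 and none for 9780. Animal means (6 congenic, 6 NP) and the arrays of each region were compared with limma (R 4.3.3, limma 3.58.1, data.table in version 1.17.8). Regions and the interaction were tested with the animal as a fixed block. Tests were 2-sided, with Benjamini-Hochberg adjustment over 18625 probe sets. The fits were first tested on simulated data. Figures and summaries used Python 3.11.15, numpy 2.4.6, pandas 2.3.3 and matplotlib 3.10.9. Each animal carries its own number in every region per the labels, so numbers pair regions and not lines.

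All 8 genes are named whatever their values. Of each further list, at most 4 called genes with the smallest adjusted p are named per comparison, and the likeness lists hold 3 genes per member, 10 for the mean and 5 after subtraction of the region means. The members, lists and markers were chosen with earlier results of these data known. Alternatives were quantile normalization, median centring, no filter, a filter at the 60th percentile, a trended robust prior, no block or a random block, the mean of a gene's probe sets, each animal left out, the 7 arrays left out and, chosen after seeing the data, only the accumbens array of congenic animal 9 left out.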

Additional observations from a re-analysis of the deposited data

Results flagged for a closer look

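In 7 of 80 groups of 6 arrays (8 genes by 5 regions by 2 lines) 1 array was far from the others by Dixon's 95% limit, where chance flags about 1 group in 20. Of these, 4 values came from arrays that stand apart as a whole. Aldh1l1 read 10.37 on the accumbens array of congenic animal 9, against 9.98 to 10.00 on the other 5 congenic accumbens arrays. Gja1 read 14.13 on the same array, against 13.89 to 13.95. Aqp4 read 13.94 on the accumbens array of NP animal 8, against 13.47 to 13.62 on the other NP accumbens arrays. Aldh1l1 read 10.585 on the hippocampus array of NP animal 11, against 10.26 to 10.35.

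The other 3 came from arrays that do not stand apart. Slc1a3 read 14.35 on the amygdala array of congenic animal 10, against 14.06 to 14.09 on the other congenic amygdala arrays. Aldh1l1 read 9.75 on the accumbens array of NP animal 6, against 9.94 to 10.03. Gfap read 12.42 on the frontal cortex array of NP animal 6, against 12.57 to 12.66.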

How the results depend on the processing

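No regional difference of a representative that was called changed sign under any alternative run. Values that were not called did: in the accumbens, Gfap was -0.066 without the 7 arrays and Slc1a3 0.031 after quantile normalization, and in the amygdala Slc1a2 was -0.013 without the 7 arrays. Leaving out each animal gave -0.036 to 0.061 for Gfap and -0.019 to 0.0097 for Slc1a3 in the accumbens. Small called differences were lost in 4 cases: Glul in the accumbens and Gja1 in the frontal cortex with median centring, and Glul in the frontal cortex and S100b in the hippocampus with quantile normalization. Leaving out single animals also ended the first 3 and that of Gja1 in the amygdala. Calls were gained for Aldh1l1 in the frontal cortex without the 7 arrays, and for Slc1a3 there with median centring, with the trended robust prior and without the accumbens array of congenic animal 9. In the striatum they were gained for S100b with median centring and without the 7 arrays, and for Slc1a2 without the 7 arrays or that 1 array. The astrocyte probe sets called in the frontal cortex numbered 12 without the 7 arrays, 9 without the accumbens array of congenic animal 9 and 4 to 8 with each animal left out. In the striatum they numbered 15 without the 7 arrays, and over the 10 pairs of regions the calls numbered 109 without them, against 71.

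Line differences near 0 changed sign. With the mean of a gene's probe sets they were -0.074 for Aqp4, -0.086 for Slc1a3 and -0.029 for Gja1. Quantile normalization gave 0.0080 for Glul and 0.0010 for S100b. Without the 7 arrays they were 0.0079 for Slc1a2 and 0.0019 for Glul, and Slc1a2 was 0.018 without the accumbens array of congenic animal 9. Leaving out each animal gave -0.057 to 0.0010 for Gfap, -0.034 to 0.0074 for Slc1a2, -0.013 to 0.021 for Slc1a3 and -0.014 to 0.0013 for Glul. None was called.

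Over all probe sets, line calls were 11 in the mean over regions at the 60th percentile filter (23 as reported). In the accumbens they were 8 without the 7 arrays, 8 without the accumbens array of congenic animal 9, and 1 to 8 with each animal left out. In the amygdala they were 2 at the 60th percentile, 18 without the 7 arrays and 4 to 14 with each animal left out, in the frontal cortex 6 at the 60th percentile, and in the hippocampus 2 with no filter, 7 without the 7 arrays and 1 to 5 with each animal left out. The interaction gave 2 without the 7 arrays. With no filter the region calls were 19716 in the accumbens, 14766 in the amygdala, 17899 in the frontal cortex, 16329 in the hippocampus, 20397 in the striatum and 27562 for any region.

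Same-numbered arrays are 1 animal in 5 regions. With the animal as a random replicate block (consensus correlation -0.016), line calls over all probe sets were 9 in the accumbens, 6 in the frontal cortex, 6 in the hippocampus and 6 in the striatum, and those of astrocyte genes were 0. Fits with no replicate block changed no other call reported. Lines share no animal, so no pairing between them was possible. Signals of the 2 probe sets under the filter, and line differences within the confidence intervals given, could not be resolved.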
